A study of Mus musculus with 6 samples.

Results

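The replication-dependent histone cluster genes were taken from the deposited count table by name, as every row whose gene symbol begins with Hist1h, Hist2h, Hist3h or Hist4h, whatever its level. They were 70 of the 43346 rows, and the letters after the cluster number sort them into 6 genes for linker histone H1, 20 for H2A, 19 for H2B, 12 for H3 and 13 for H4. The Hist1 cluster held 56 of them on chromosome 13, Hist2 held 10 on chromosome 3, Hist3 held 3 on chromosome 11 and Hist4 held 1 on chromosome 6. The table gives 68 as protein coding and 2, Hist3h2bb-ps and Hist1h2aj, as pseudogenes.

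RNA came from femurs of C57BL/6 mice aged 4 months. The radiated group had received 24 Gy at 6.6 Gy per minute as a single focal dose to a 5 mm stretch of the right distal metaphysis, and the non-radiated group was the opposite, left femur. Both groups, 3 libraries each, were taken on day 21, and muscle was removed before the bone was homogenized. The labels do not tie a library to a mouse, so p-values measure the spread between these libraries, and in whole bone fewer cells of a type and less RNA per cell cannot be told apart.

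Nucleosomes wrap DNA around an octamer of H2A, H2B, H3 and H4, and H1 binds the linker between them. The cluster genes make the histones that package new DNA, are transcribed mainly in S phase and mostly have no introns. Some gene models here do span more bases than they hold, such as Hist2h2bb, with a length of 1666 over chr3:96269721-96279001. Their mRNAs end in a conserved stem-loop instead of a poly(A) tail, and the stem-loop binding protein Slbp carries them through processing, translation and decay. In bone they are expected mostly from dividing marrow precursors. The libraries were made with a stranded mRNA kit, which captures poly(A) tails; how far that capture entered the members' values was not tested.

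The stem-loop defines these transcripts, so its forms are shown as DNA letters of the transcript strand from GENCODE M21 (GRCm38), 5′ to 3′, with the 4 loop bases in capitals. The motif searched was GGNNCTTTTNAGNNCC on the transcript strand only, with the requirement that the 6 bases on either side pair with each other. In members only the transcript with the longest open reading frame was searched, after its stop codon, or throughout where no frame was found. The motif was found there in 41 of the 68 members with a transcript in GENCODE M21. Searched anywhere in any transcript, it was found in 50 of 55450 genes in all (0.0902%), members included.
23 members of H1, H2A, H2B and H3: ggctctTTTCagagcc
7 members of H4: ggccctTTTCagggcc
6 members of H1, H2B and H3: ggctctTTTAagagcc
2 members of H4, Hist2h4 and Hist1h4i: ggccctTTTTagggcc
2 members of H4, Hist1h4j and Hist1h4b: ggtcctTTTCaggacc
Hist2h2ac, an H2A gene: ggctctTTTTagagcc
All 11 H4 members with a match had a stem beginning ggccct or ggtcct, whereas the 30 matches in the other classes all had the stem beginning ggctct. In Hist1h4d the hairpin began 36 bases after the stop codon, and in Hist1h2ab 46 bases after it. A member without a match has none in the part of the annotated transcript that was searched: 15 of the 27 without one have models that end within 30 bases of the stop codon.

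Many H2A and H2B genes stand head to head and share the bases between their start sites. The pair with the highest summed level, Hist1h2ak and Hist1h2bn, is shown as the example, from RefSeq on GRCm38, plus strand, chr13:21753913-21754075, which is the 163 bases between both starts, outside either transcript. Capitals mark CCAAT, the binding sequence of the factor NF-Y, on either strand.
Hist1h2ak and Hist1h2bn: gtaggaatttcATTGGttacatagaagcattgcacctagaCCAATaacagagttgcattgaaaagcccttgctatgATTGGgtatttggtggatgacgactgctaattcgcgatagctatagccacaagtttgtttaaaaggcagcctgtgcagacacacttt
These letters hold 3 CCAAT matches. RefSeq promoter windows, 250 bases before to 50 after a start, were found for 62 of the 70 members, matched by position because the names Hist2h2aa1 and Hist2h2aa2 are exchanged between the table and RefSeq. CCAAT on either strand was present in 53 of the 62 (85.5%), against 37.4% of all 32851 RefSeq promoter windows. By class it was in all 18 H2A, 16 H2B, 10 H3 and 6 H1 windows but in 3 of 12 H4 windows. TATAAA, on either strand and anywhere in the window, was present in 35 (56.5%) against 13.6% of all windows. Both windows of the printed pair had it, although the 163 bases between their starts hold 0 matches. ATTTGCAT, the octamer bound by Oct-1, was searched in the same way. It was present in 13 (21.0%) against 1.74%, in 7 H2A and 6 H2B windows and in none of H1, H3 or H4. Divergent partners have overlapping windows, so 1 match can be counted for both genes.

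Total counts per library ran from 34034251 to 48708383, and the members took 148415 to 323355 of them. Col1a1, the main collagen chain of osteoblasts, was at 2984 to 6185 CPM, Hbb-bt of erythroid cells at 5578 to 6285 CPM, and Mki67, a proliferation marker, at 2410 to 3113 CPM, so bone and dividing marrow were both present in each library. CPM is the count of a gene scaled to a fixed library total by TMM, edgeR's correction for a few genes that take many reads. It was needed because 1 RNA, AY036118, took 32.9% of the counts of non-radiated library 2 and 0.321% to 5.61% of the others. Of the marker lists, 12 of 12 B cell progenitor genes were called higher in radiated bone, and 10 of 10 megakaryocyte, 3 of 8 osteoblast and 2 of 10 neutrophil progenitor genes were called lower. With the replicate block the osteoblast and neutrophil counts were 5 and 4. Of 11 erythroid genes edgeR called 0, with 4 at an unadjusted p under 0.05, DESeq2 2, limma-voom 0 and edgeR with the replicate block 1, Gata1, at an adjusted p of 0.0289.

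Per length, H1 and H2B led. In CPM per kb of gene model, the summed level over 6 libraries was 36.6% from H1 genes, 32.3% from H2B, 18.8% from H4, 6.85% from H3 and 5.48% from H2A. A few genes carried each class: the leading 3 made up 72.7% of the H1 sum, 72.7% of the H4 sum, 54.3% of the H2B sum, 52.7% of the H2A sum and 46.3% of the H3 sum. Models that stop at the coding end are shorter than the transcript, so these levels depend on the annotation. Members also differed in the share of 50-base stretches of their GENCODE M21 transcripts found in no other gene. It was 100%, 100% and 97.7% for Hist1h1a, Hist1h1b and Hist1h1d, but 68.0% for Hist1h1e. The Hist1h1d transcript has 7425 bases and its counted model 744, so its share covers bases outside that model. For the H4 gene Hist1h4d the share was 89.8%, and for the H3 gene Hist1h3f 50.7%. For Hist1h2ab, Hist3h2a and Hist1h2ak it was 42.0%, 68.5% and 47.7%, and for Hist1h2bn, Hist1h2bb and Hist2h2bb 13.6%, 59.9% and 87.8%. Whether reads matching several genes were counted is not stated, and their part in the class order was not tested.

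Among linker histones, the order in mean CPM per kb was Hist1h1a at 840, Hist1h1b at 679, Hist1h1d at 554, Hist1h1e at 533 and Hist1h1c at 245. The testis-specific Hist1h1t was at 1.27 CPM per kb. The other testis-restricted members were at the floor. Hist1h2aa had 0 counts in all 6 libraries, where 3 counts, the upper limit that a count of 0 allows, correspond to 0.0561 to 0.120 CPM by library. Hist1h2ba had 2, 0 and 0 counts in the non-radiated and 1, 3 and 0 in the radiated libraries. These limits cover counting error only.

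In the edgeR fit without pairing, no member differed between radiated and non-radiated bone beyond the spread between libraries at the threshold used. Of the 70 members, 66 passed the filter on low counts and entered the edgeR quasi-likelihood fit, and 0 of 66 were called at a Benjamini-Hochberg adjusted p of 0.05 over all 18757 genes tested. In the same fit 7.8% of all genes were called, 4.56% higher and 3.24% lower. At an unadjusted p of 0.05, 3 members (4.55%) passed against 21.5% of all genes. DESeq2's Wald test called 1 member, Hist1h3a, and limma-voom called 0, against 10.3% and 7.29% of all genes. With the replicate number as a block edgeR called 1 member, also Hist1h3a, against 8.9% of all genes. The 4 members that did not enter were Hist1h2aa, Hist1h2ba, Hist1h2ao and Hist2h2aa2, each with at most 11 counts in a library.

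The classes overlapped between groups throughout. Summed over all 70 members, the level was 4313, 5926 and 4970 CPM in the non-radiated and 5375, 6055 and 4386 CPM in the radiated libraries, a ratio of means of 1.04. The lowest value was non-radiated library 1 and the next lowest radiated library 3, so neither group stood above the other.

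H1 genes summed to 1977, 2479 and 2145 CPM in non-radiated and 2289, 2605 and 1929 CPM in radiated bone, a ratio of 1.03. H2A genes summed to 310 ± 66.4 CPM (SD, n = 3) and 322 ± 57.1 CPM (SD, n = 3), and H2B genes to 1646 ± 370 and 1631 ± 223 CPM (SD, n = 3 each), with ratios of 1.04 and 0.991. For both dimer partners the difference was smaller than either SD. H3 genes summed to 234, 308 and 302 CPM against 342, 400 and 245 CPM, a ratio of 1.17, and H4 genes to 494, 697 and 706 CPM against 751, 842 and 554 CPM, a ratio of 1.13. In H3 and H4 radiated libraries 1 and 2 lay above all 3 non-radiated ones and radiated library 3 lay below all but non-radiated library 1.

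**Figure D1:**
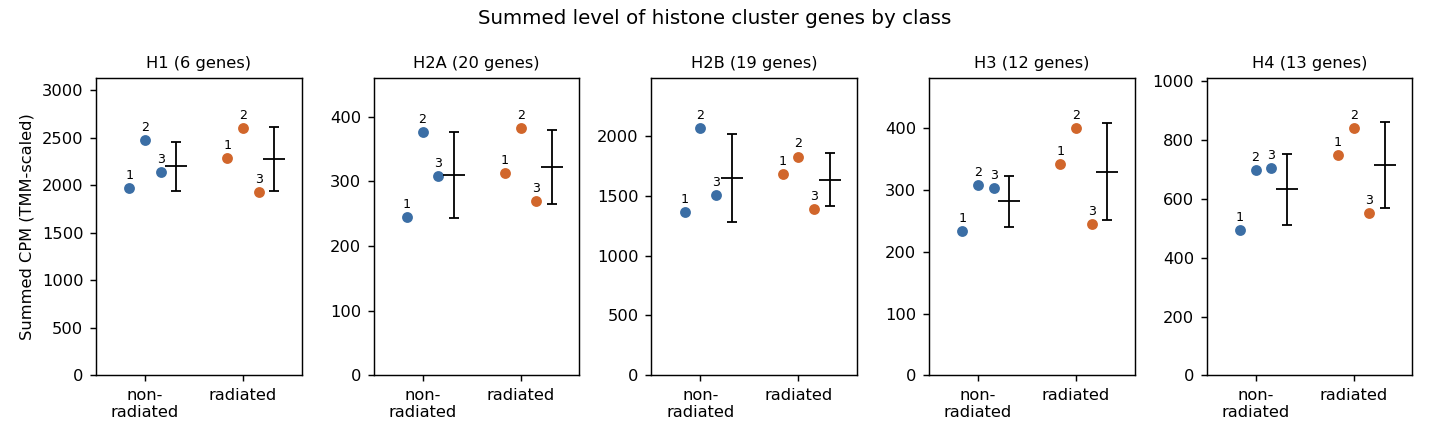
Summed TMM-scaled CPM of the histone genes of each class (y axis, from 0) in non-radiated (blue) and radiated (orange) femurs; points are libraries with their number, and the black bar is the mean ± SD of 3 libraries. The groups overlap in all 5 classes, with non-radiated library 1 at 494 CPM and radiated library 3 at 554 CPM the lowest for H4.

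The direction of the members was uneven. The fitted log2 fold change of radiated against non-radiated bone was positive in 56 of the 66 tested members (84.8%), against 50.5% of all 18757 genes, and its median was 0.17 against 0.00. The members are not independent of each other, since they moved together from library to library. Without non-radiated library 1 the median was 0.02, and without radiated library 2 it was 0.01, with 36 of 66 positive in each case; without non-radiated library 2 it was 0.30 and without radiated library 3 it was 0.33. An edgeR fit with the skeletal muscle level as a covariate was added after the values were seen. In it the median was -0.16 with 9 of 66 positive. The 10 skeletal muscle genes were highest in radiated libraries 1 and 2, at 763 and 2374 CPM summed, against 163 to 330 CPM in the other 4. Muscle level therefore went partly with the group, and that fit cannot tell muscle from group. By class, the median was 0.05 for H1, 0.24 for H2A, 0.08 for H2B, 0.24 for H3 and 0.23 for H4.

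For 61 of the 66 members the 95% interval of the change lay within a 2-fold difference in either direction, and for 28 within a 1.5-fold difference. The median standard error was 0.19 on the log2 scale for members and 0.11 for all genes, so the same change was measured less precisely in this group. A missed threshold therefore does not show that members were equal between groups.

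**Figure D2:**
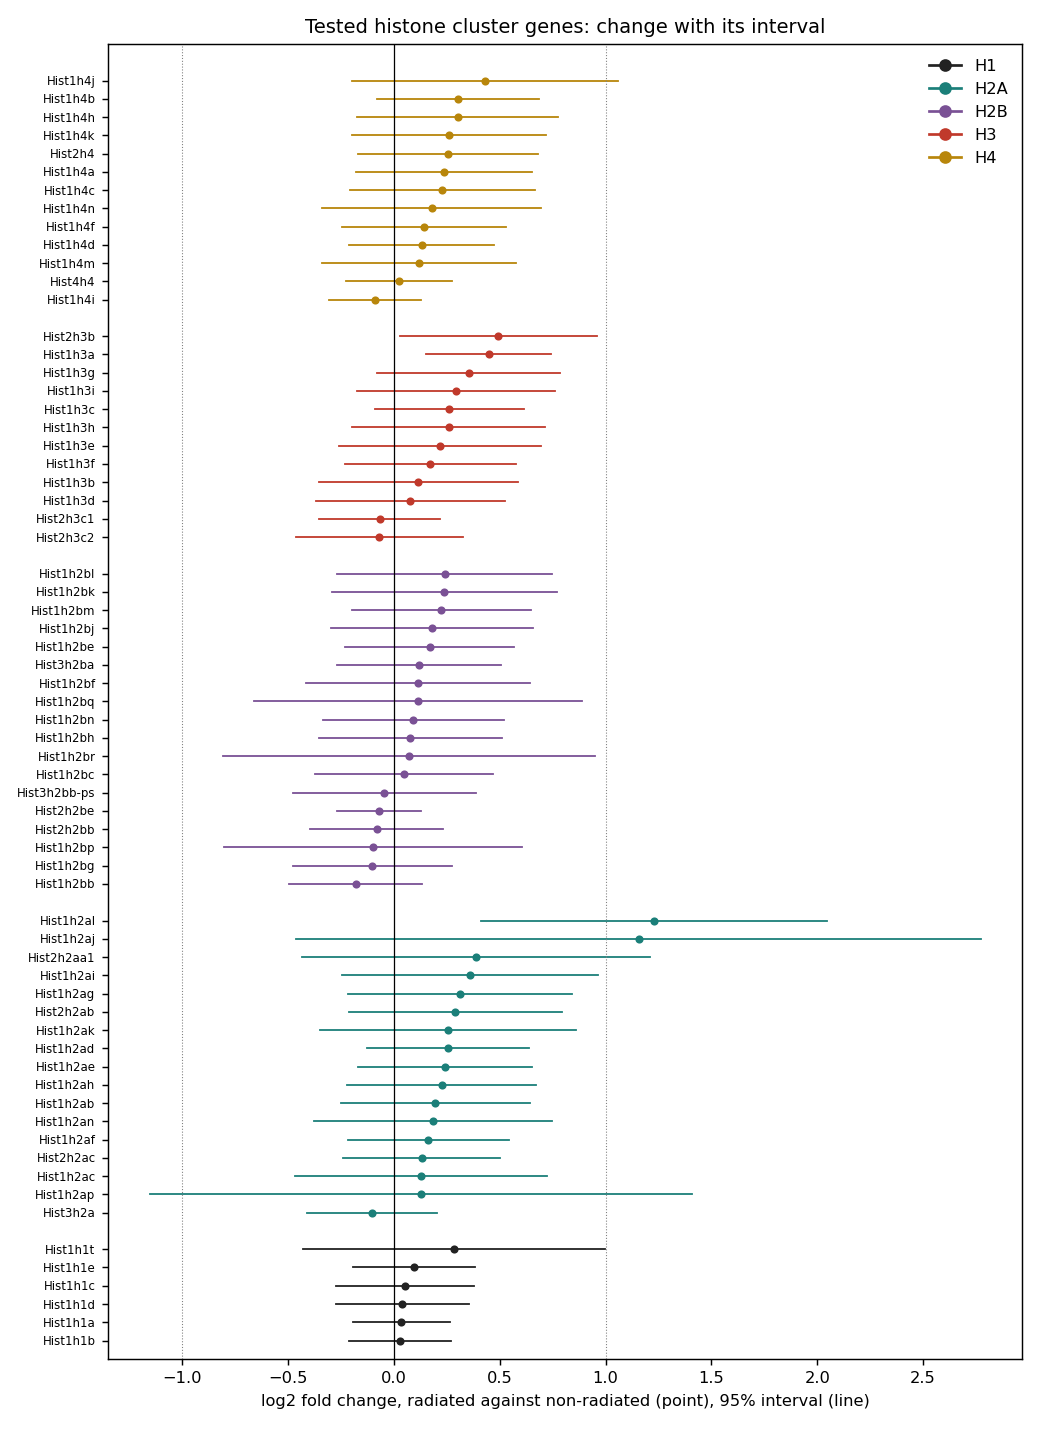
Log2 fold change of radiated against non-radiated bone (point) with its 95% interval (line) for the 66 tested members, ordered within class; dotted lines mark a 2-fold difference. Of the members 56 lie to the right of 0, and the widest interval, that of Hist1h2aj, reaches from -0.46 to 2.77.

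The 3 most abundant linker genes did not differ beyond their spread. Hist1h1a was at 492, 590 and 516 CPM in non-radiated and 543, 614 and 480 CPM in radiated bone, with a log2 fold change of 0.03 (SE 0.10). Hist1h1b was at 459, 580 and 458 CPM against 492, 565 and 470 CPM, a change of 0.03 (SE 0.11), and Hist1h1d had a log2 fold change of 0.04 (SE 0.14). The groups were interleaved for all 3, and the intervals stayed within a fold change of 0.826 to 1.28.

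Among H2A genes, Hist3h2a was at 139, 201 and 158 CPM in non-radiated and 142, 179 and 142 CPM in radiated bone, a log2 fold change of -0.10 (SE 0.14). Its row overlaps Trim17 in the table. Hist1h2ab had a log2 fold change of 0.20 (SE 0.20) and Hist1h2ak of 0.25 (SE 0.27), with overlapping groups.

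For H2B, Hist2h2bb was at 553, 742 and 547 CPM against 599, 656 and 486 CPM, a log2 fold change of -0.08 (SE 0.14). Hist1h2bb had the lowest fold change of the tested members, at -0.18 (SE 0.14), with 216, 304 and 195 CPM against 205, 219 and 205 CPM. Its highest value was non-radiated library 2 and the other 5 libraries lay between 195 and 219 CPM. Hist1h2bg was also highest in non-radiated library 2, at 93.3, 151 and 92.7 CPM against 96.6, 108 and 108 CPM, and Hist1h2bn was at 188 ± 54.9 and 201 ± 31.6 CPM (SD, n = 3 each).

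Among H4 genes, all 3 of the most abundant had their lowest value in non-radiated library 1. Hist1h4d was at 137, 197 and 187 CPM against 193, 222 and 155 CPM, a log2 fold change of 0.13 (SE 0.15). Hist1h4f had a change of 0.14 (SE 0.17) and Hist1h4c of 0.23 (SE 0.19). The 13 H4 genes had 12 distinct coding sequences, 85.3% to 100% identical between pairs, that translate to 1 protein.

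The smallest p of any member belonged to an H3 gene. Hist1h3a, at chr13:23761853-23762386, was measured at 10.1, 13.4 and 14.1 CPM in non-radiated and 15.2, 18.4 and 17.6 CPM in radiated bone. The groups did not overlap. Its log2 fold change was 0.45 (SE 0.13, 95% interval 0.15 to 0.74), with an edgeR adjusted p of 0.0754.

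With the replicate number as a block, Hist1h3a had an edgeR adjusted p of 0.0195 and was the 1 member called (1.52%), against 8.9% of all genes in that fit. It was higher in the radiated library of all 3 pairs, by 0.58, 0.46 and 0.32 on the log2 scale. Over all alternatives its adjusted p ran from 0.0126 to 0.246. Hist1h3a and Hist1h2al were the 2 members (3.03%) without overlap between groups, both higher in radiated bone, against 25.9% of all genes without overlap and 14.4% without overlap and higher.

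Hist2h3b was at 8.67, 10.2 and 11.9 CPM against 14.4, 18.8 and 10.2 CPM, a log2 fold change of 0.49 (SE 0.21) with an edgeR adjusted p of 0.207. Radiated library 3 lay among the non-radiated values, and without it the adjusted p was 0.0361, in a range of 0.0361 to 0.970 over the alternatives. Hist1h3g, at 19.1, 26.4 and 21.2 CPM against 28.2, 36.2 and 20.5 CPM, also had radiated library 3 among the non-radiated values, with a change of 0.35 (SE 0.19). The most abundant H3 genes, Hist1h3f, Hist1h3c and Hist1h3e, had changes of 0.17, 0.26 and 0.22 with overlapping groups.

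The 2 highest fold changes belonged to rare H2A-like rows. Hist1h2al, which RefSeq lists as a pseudogene and which lies apart from the other Hist1 genes at chr13:51202688-51203065, was counted 8, 8 and 14 times in the non-radiated libraries and 25, 49 and 20 times in the radiated ones. Its log2 fold change was 1.23 (SE 0.36) with an edgeR adjusted p of 0.0761, and 0.0419 without radiated library 3. The adjusted p of Hist1h2al ran from 0.0258 to 0.517 over the alternatives. The pseudogene Hist1h2aj had 11, 6 and 131 counts against 85, 209 and 107, so non-radiated library 3 lay among the radiated values. Its log2 fold change was 1.16 (SE 0.72, adjusted p 0.407), and 3.36 with an adjusted p of 0.00306 without non-radiated library 3, in a range of 0.00111 to 0.708 over the alternatives. Of the 50-base stretches of their transcripts, 32.4% in Hist1h2al and 6.93% in Hist1h2aj occur in no other gene, so reads could be shared with other H2A genes.

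**Figure D3:**
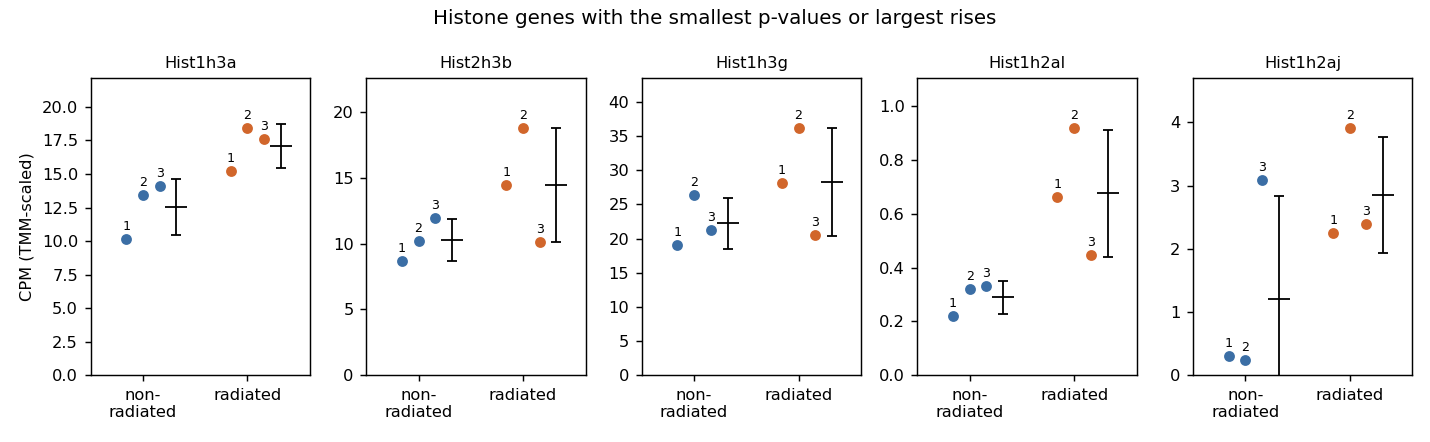
TMM-scaled CPM by library (numbered points, y axis from 0, with mean ± SD of 3 libraries) for the 5 members with the smallest p-values or highest fold changes; the lower SD bar of non-radiated Hist1h2aj extends below the axis. The groups are separate for Hist1h3a, at 10.1 to 14.1 against 15.2 to 18.4 CPM, and for Hist1h2al, and overlap for the other 3.

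The spread of the members between libraries was larger than that of other cell cycle genes. Each gene's log2 level was set against its own mean over the 6 libraries and the median taken over genes. For the 66 members this median was -0.41, 0.20 and -0.04 in non-radiated libraries 1 to 3 and 0.16, 0.35 and -0.26 in radiated libraries 1 to 3, a range of 0.76. Non-radiated library 1 held the lowest value of 44 members and radiated library 2 the highest value of 48, so 1 library of each group set the ends.

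The range was smallest for H1, at 0.41, and was 0.75 for H3, 0.76 for H2B, 0.83 for H4 and 1.02 for H2A. Among 23 S phase DNA replication genes it was 0.21, among 15 mitosis genes 0.28, among 11 erythroid genes 0.27 and among 11 replication-independent histones 0.17. Replication-independent histones, such as H3f3b and H2afz, are made outside S phase as well as in it, from polyadenylated mRNA. These ranges are descriptions of 6 libraries with no test.

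**Figure D4:**
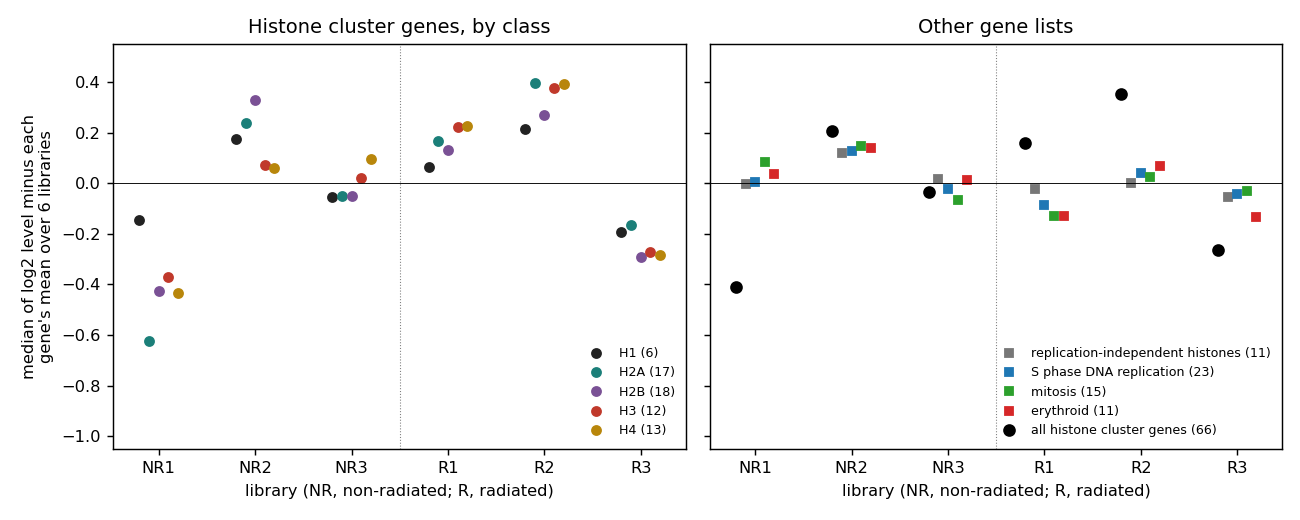
Median over genes of the log2 level minus each gene's 6-library mean (y axis), by library (x axis), for the 5 histone classes (left) and for all tested members beside 4 other gene lists (right); numbers in brackets are genes. The members span -0.41 to 0.35, whereas the S phase genes span -0.08 to 0.13.

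The numbers 1 to 3 were taken to pair the libraries, from correlated deviations, and the members differed by pair. Radiated was higher than non-radiated in 60 of 66 members in pair 1 (median log2 difference 0.61), in 49 in pair 2 (0.15) and in 13 in pair 3 (-0.23). Of all genes, 50.4% to 52.8% were higher in each pair. The sign of the members' median therefore differed between pairs.

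Skeletal muscle genes also differed between libraries. The 10 genes of that list summed to 190, 330 and 163 CPM in non-radiated and 763, 2374 and 187 CPM in radiated bone, all 10 had a positive fold change and an unadjusted p under 0.05, and none of its markers Acta1, Ckm and Myh4 was at 0. By edgeR 0 of the 10 were called, by DESeq2 and limma-voom also 0, and 9 with the replicate block. In the fit with the muscle level as a covariate edgeR called 0 members, against 4.71% of all genes. In it 4 members had an unadjusted p under 0.05. That fit cannot tell muscle level from group, so the part of muscle RNA in the members' values was not tested.

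RNAs that lack a poly(A) tail were looked at after the values were seen. Rn7sk, a transcription regulator made by RNA polymerase III, was at 4859, 5912 and 5488 CPM in non-radiated and 5967, 5392 and 4855 CPM in radiated bone. Its lowest values were radiated library 3 and non-radiated library 1, the same libraries that were lowest for the members' sum. The other 4, Rpph1 at 578 to 1021 CPM, Rmrp at 186 to 262 CPM, Rny1 at 5.11 to 12.2 CPM and Rny3 at 3.27 to 12.2 CPM, were all lowest in non-radiated library 2, where the members' sum was the second highest. None of the 5 was called. A part of poly(A) capture in these values was not tested.

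Members were also described by the annotated end of the GENCODE M21 transcript, with no test. That transcript had the same length as the counted gene model in 44 of the 68 members. It could be far longer, as in Hist1h1d at 7425 against 744 bases, so the ends described can lie outside the counted model. The 21 members whose transcript continues more than 100 bases past the stem-loop had a range of 0.58 between libraries and a median log2 fold change of 0.12. The 18 tested members with at most 100 bases after the stem-loop had a range of 0.85 and a median of 0.19. Without a stem-loop match, a set of 12 members had a range of 0.90 and a median of 0.09. They had more than 30 bases after the stop codon, except Hist1h2aj and Hist1h2al. In these no reading frame was found, and the whole transcript was taken as the end. The 13 tested members with at most 30 such bases had 0.82 and 0.24. Whether the annotated end had a part in these ranges was not tested. Of the transcripts' 50-base stretches the median member had 50.4% found in no other gene, 2 members, Hist2h2aa1 and Hist2h3c1, had none, and 4 had only such stretches. The median was 75.4% with more than 100 bases after the stem-loop and 40.1% in the tested members with at most 100. The 31 tested members under 50% unique had a median log2 fold change of 0.22 and the 33 at or above it 0.12. How the counting treated reads that match several genes is not stated, so single members of H2A, H2B, H3 and H4 are uncertain.

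In all, 9 members overlap another gene in the table, among them Hist2h3b and Hist2h2bb, which overlap the antisense gene Gm20628. Whether the counting used strand is not stated, and reads from both partners cannot then be told apart.

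In 7 of the 8 divergent pairs in which both genes were tested, the H2B gene had the higher level per length. The ratio of H2B to H2A in CPM per kb was 7.22 for Hist1h2bn over Hist1h2ak, whose shared promoter is printed above, at 510 against 70.7 CPM per kb. It ran from 0.263 for Hist1h2br over Hist1h2ap to 9.96 for Hist1h2bg over Hist1h2ae, with a median of 6.66. In the 7 pairs led by H2B it was the higher gene in all 6 libraries. The H2A partner had the larger log2 fold change in 7 of the 8 pairs, for example 0.25 (SE 0.27) for Hist1h2ak and 0.09 (SE 0.19) for Hist1h2bn; the difference within pairs was not tested. The ratios carry the same uncertainty as the single genes. Of 50-base stretches, 47.7% in Hist1h2ak and 13.6% in Hist1h2bn are found in no other gene, and 56.8% in Hist1h2ae and 50.3% in Hist1h2bg. In every other tested pair the H2A gene had the lower share, for example 14.2% in Hist1h2an against 55.9% in Hist1h2bp. The part of shared reads in the ratios was not tested.

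**Figure D5:**
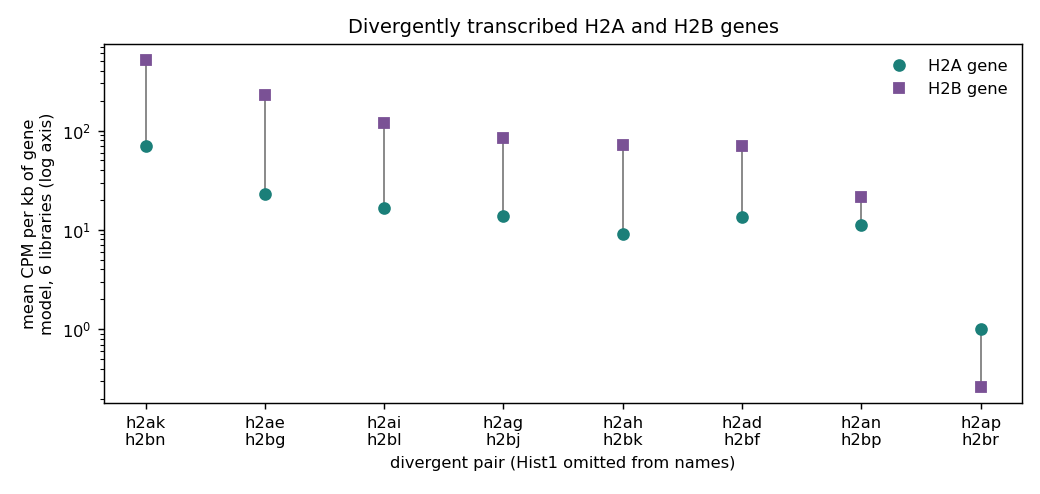
Mean level in CPM per kb of gene model over 6 libraries (log axis) of the H2A gene (circle) and H2B gene (square) in the 8 divergent pairs in which both were tested. The H2B gene is above its partner in all but the last pair, Hist1h2ap and Hist1h2br, both near or below 1 CPM per kb.

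The genes that make and handle histone mRNA and protein showed no called member. In 22 genes of histone gene transcription and mRNA 3′ processing, 0 were called by edgeR and 2 had an unadjusted p under 0.05, with a median log2 fold change of -0.04. Ccne2, a cyclin E that drives Cdk2 at S phase entry, was at 70.0, 68.5 and 59.3 CPM against 48.1, 53.0 and 59.0 CPM, a change of -0.30 (adjusted p 0.0736), and the uridylyl transferase Zcchc6 had a change of -0.14 (adjusted p 0.210). Slbp was at 134, 144 and 129 CPM against 116, 128 and 127 CPM (adjusted p 0.257), and Npat, the coactivator of the histone loci, had a change of -0.05. DESeq2 called 1 of these genes and limma-voom none, and 1 was called without non-radiated library 3, without radiated library 3 and with no filter on low counts.

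Of 17 histone chaperones and import factors 0 were called, with 1 at an unadjusted p under 0.05, and the median was -0.06; the chaperone Asf1a had a change of -0.23 (adjusted p 0.154) and the histone acetyltransferase Hat1 of -0.15 (adjusted p 0.251). Of 11 replication-independent histones 0 were called, with 0 at an unadjusted p under 0.05, and H3f3b had a change of -0.13 (adjusted p 0.239) and H2afz of -0.12 (adjusted p 0.321).

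Among 23 S phase replication genes 0 were called and 3 had an unadjusted p under 0.05, with a median log2 fold change of -0.06 against 0.17 for the histone members. Pola1, a DNA polymerase alpha subunit, and Mcm6, of the replicative helicase, had changes of -0.20 and -0.18. Among 15 mitosis genes 0 were called, 1 had an unadjusted p under 0.05, all 15 changes were negative, and the median was -0.10; Cenpf of the kinetochore had a change of -0.19 and the kinase Cdk1 of -0.13. DESeq2 and limma-voom called no gene of the chaperone, replication-independent, S phase and mitosis lists, and 1 S phase and 1 mitosis gene were called without non-radiated library 3. The difference between these lists and the histone members was not tested.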

How the data were processed

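Whole-number counts per gene were deposited for 6 libraries in 1 table, beside RPKM values that the authors computed and that were not used here. Reads were processed with STAR 2.5.2b and featureCounts of Subread on mm10, per the submitters' processing notes; the annotation, the strand setting and the handling of multi-mapping reads are not given in the sources used here. Counts were tested with edgeR 4.0.16 (R 4.3.3) after filterByExpr (minimum count 10, minimum total 15), with TMM scaling, glmQLFit and glmQLFTest, the group as the only term and Benjamini-Hochberg adjustment over 18757 genes. A standard error is the size of the log2 fold change divided by the square root of F. Pair differences used an offset of 0.05 CPM. Libraries held 34034251 to 48708383 counts. In raw counts, replicate pairs exceeded counting noise (chi-square over its degrees of freedom, 16.6 to 580). The values 580 and 492 came from pairs with non-radiated library 2, where AY036118 took 32.9% of counts. Non-radiated libraries 1 and 3 gave 42.3. This ratio was not computed for the members alone.

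The members, lists and tests were chosen with earlier results of these data known. The text names members that were called, the 3 most abundant of each class, the 4 smallest p, the 3 highest and 3 lowest fold changes, 3 testis-restricted genes, and in each list the genes with the smallest p; for lists of other cell types counts are given. Outside that rule, after their values were seen, Hist1h1c and Hist1h1e, Hist1h2ap, Hist1h2br and Hist1h2ae as extremes of a ratio, members named for a sequence feature, biotype or missed filter, Slbp, Npat, Gata1, and the RNAs without a poly(A) tail were named.

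Same-numbered libraries had correlated deviations from their group means across genes, at 0.186, 0.349 and 0.204 for numbers 1, 2 and 3, against -0.221 to 0.020 for other pairings. The numbers were taken to pair the libraries, and an alternative fit carried the replicate block. Others were DESeq2 1.42.0 size factors and Wald test, limma-voom (limma 3.58.1), library totals, other filters and leaving out each library; library totals without AY036118 and Gm26917 and the muscle covariate were added after seeing the data. Sequences were read from GENCODE M21 transcripts and RefSeq promoter windows, both on GRCm38.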

Additional observations from a re-analysis of the deposited data

How the results depend on the processing

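The count of members called, all higher in radiated bone, was 0 in the reported fit. It was 2 of 66 with library totals alone, against 5.33% of all genes. With no filter on low counts it was 2 of 69, against 7.2%, and with DESeq2's Wald test 1 of 66, against 10.3%. It was 1 when non-radiated library 3 was left out and 2 when radiated library 3 was, against 7.25% and 7.11% of all genes. Leaving out single libraries gave a range of 0 to 2, against 3.99% to 7.25% of all genes. With the replicate block, which pairs libraries by number, 1 member was called, against 8.9% of all genes. Library totals alone called Hist1h2aj and Hist1h2al, and no filter called Hist1h3a and Hist1h2al. No setting called a member lower. The cause of these changes was not tested.

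The members' median log2 fold change ran from 0.01 to 0.33 when single libraries were left out, was 0.16 with the replicate block, 0.39 with library totals alone, where the median of all genes was 0.19, and -0.16 with the muscle covariate. With library totals alone the log2 ratio of the H1 sum was 0.26 and of the Hist4 sum 0.21. Called genes over all the fixed lists numbered 27, but 45 with no filter and 41 with the replicate block; skeletal muscle genes called were 0 in the reported fit, 10 with no filter and 9 with the block. With 3 libraries a group and a median standard error of 0.19, only 28 of 66 members had an interval within 1.5-fold, which limits what could be called.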
